A study of Mus musculus with 3 samples.

Results

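The cytosolic ribosomal protein genes are described here on 3 Affymetrix mouse arrays, 1 for each of 3 C2C12 lines. Each line expresses a short hairpin RNA, and its target is FoxO1 in the first, FoxO3 in the second and FoxO4 in the third. Probe sets were taken by symbol, Rps or Rpl followed by a digit, where the array annotation gives that symbol alone. S6 kinase genes, Rps19bp1, pseudogenes and paralogs with an added l in the name, such as Rpl22l1, were left out. The rule gave 91 of 45101 probe sets, for 40 of 18194 genes. Of these genes 20 code for proteins of the small subunit, with 51 probe sets, and 20 for proteins of the large subunit, with 40 probe sets. A further 109 probe sets name a gene of this kind together with at least 1 other gene, a pseudogene in many cases, and are not members.

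The ribosome is built from a small subunit, which reads the messenger RNA, and a large subunit, which joins amino acids, and each holds ribosomal RNA and a set of proteins used in near equal numbers. Messenger RNAs of ribosomal proteins are among the most abundant in growing cells. They begin with a C and a run of pyrimidines, the 5′ terminal oligopyrimidine tract, through which mTOR and the RNA-binding protein Larp1 control their translation. FoxO factors are transcription factors held out of the nucleus by insulin signalling through Akt, the pathway that also feeds mTOR.

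C2C12 is an established mouse myoblast line. All 3 lines were grown in DMEM with puromycin, and each came from colonies screened for the lowest level of the hairpin's target, so hairpin and colony cannot be told apart. There was 1 array per line and no replicate, so no difference between lines could be tested against the spread of replicates. The lines share a control RNAi, which enters only through the log2 ratio in the authors' deposited table for the FoxO1-labelled array. Fewer cells of a type and less RNA per cell cannot be told apart in such bulk RNA.

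The authors' GCOS signal is a linear intensity scaled to 1 trimmed mean per array. Foxo1 went against its label: its brightest probe set read 2778, 563 and 1827. In the authors' deposited table that set had a ratio to control of 1.2, called increased. Its other sets had 1.3, 1.7 and, on a dim set, -0.2, with no change called. Readings of 1 probe set are given in the order FoxO1, FoxO3, FoxO4 throughout, and lines are named only by the label of their array. Foxo3 read 2380, 1573 and 386 on its shared set and 1357, 1047 and 1016 on a plain set, lowest on the FoxO4-labelled array, and 174, 82 and 96.4 on a dim plain set, lowest on its own. Foxo4 read 188, 163 and 763 on 1 plain set and 1799, 345 and 80.4 on the other, so its sets did not settle the label. Of 8 myoblast markers 4 were above the array median on all 3 arrays, Myod1, Myf5, Cdh15 and Itga7, and the summed signal of the 8 was 35688, 46037 and 17584, highest on the FoxO3-labelled array. Of 6 fibroblast and smooth muscle markers 4 were too, and the summed signal of that list was 557850, 91958 and 433019. Adipocyte and leukocyte markers had 0 of 3 there, endothelial markers 1 of 3 and epithelial markers 1 of 4. The ratio of 3′ to 5′ Actb probe sets, a sign of RNA integrity, was 6.31, 5.50 and 3.45 and that of Gapdh 5.0, 5.90 and 2.23. On the control signal derived from the FoxO1-labelled array and its deposited ratio they were 2.56 and 2.68. The part of these differences in the results below was not tested.

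To show the pyrimidine tract for which the group is known, the promoter windows of RefSeq, build GRCm38.p6, were matched by symbol. Of the 40 genes 35 had 41 windows, each from 250 bases before to 50 bases after an annotated start. Rpl7, Rpl8, Rps14, Rps20 and Rps29 had no entry. In 7 windows the start base was C with at least 4 further C or T bases, 17.1% of 41, and 2.51% of 32851 windows of all genes did the same. These 7 are shown from 30 bases before the start to base 20, 5′ to 3′ on the gene's strand, with the pyrimidine run that opens the transcript in capitals.
Rps6, chr4:86857348-86857397, minus strand: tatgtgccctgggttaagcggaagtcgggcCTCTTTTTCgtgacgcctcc
Rps10, chr17:27635225-27635274, minus strand: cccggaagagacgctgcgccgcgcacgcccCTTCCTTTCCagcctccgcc
Rps18, chr17:33955646-33955695, minus strand: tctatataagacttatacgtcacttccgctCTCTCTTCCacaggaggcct
Rps27, chr3:90213629-90213678, minus strand: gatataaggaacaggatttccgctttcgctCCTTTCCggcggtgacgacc
Rpl14, chr9:120571487-120571536, plus strand: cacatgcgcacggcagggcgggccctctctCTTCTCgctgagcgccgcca
Rpl35, chr2:39005112-39005161, minus strand: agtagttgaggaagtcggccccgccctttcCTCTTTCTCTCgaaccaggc
Rpl38, chr11:114668550-114668599, plus strand: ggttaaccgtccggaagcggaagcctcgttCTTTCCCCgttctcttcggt

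A start placed a few bases off hides such a tract, and a run of at least 8 C or T that touched bases -10 to 10 was found in 17 of the 41 windows, 41.5%, beside 13.7% of all windows. CGGAAG on either strand, the core bound by ETS factors such as GABPA, was in 26 of the 41, 63.4%, beside 16.9%. AAGATGG on either strand, part of the YY1 site, was in 7, 17.1%, beside 6.34%. TGTTTAC on either strand, the core bound by FoxO factors, was in 1 window, 2.44%, beside 3.65% of all windows. That window belongs to Rpl41, and the match, in capitals below, starts at base -241 from the annotated start.
Rpl41, chr10:128549388-128549418, minus strand: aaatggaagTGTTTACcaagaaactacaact
A match is a description of letters and does not show a bound site.

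Affymetrix marks by suffix how specific a probe set is, and the members were split by it. The 25 plain sets, ending in _at alone, cover 20 genes and were designed to match 1 transcript. The other 66 sets, called shared here, cover 31 genes, of which 11 also have a plain set. They comprise 38 _x_at sets, in which some probes resemble other genes, 3 _s_at sets common to several transcripts and 25 _a_at sets common to transcripts of 1 gene. Processed pseudogenes of ribosomal proteins are numerous, so a shared set can also read other copies. The classes differ in brightness: 59 of the 66 shared sets and 8 of the 25 plain sets lay in the upper 10% of all probe sets by mean log2 signal.

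The FoxO3-labelled array had the highest ribosomal protein signal. It read highest of the 3 arrays on 53 of 66 shared sets and on 17 of 25 plain sets, 80.3% and 68%. Over all probe sets of the array that order was found on 35.8% of shared and 30.2% of plain sets. Among sets in the upper 10% by signal it was found on 47.9% and 35.4%, against 50 of 59 and 7 of 8 members there. The FoxO1-labelled array was lowest on 47 of 66 shared sets and 12 of 25 plain sets, beside 33.4% and 31% of all sets, and 40.6% and 35% of those in the upper 10%. The plots of signal by array show this order gene by gene.

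**Figure D1:**
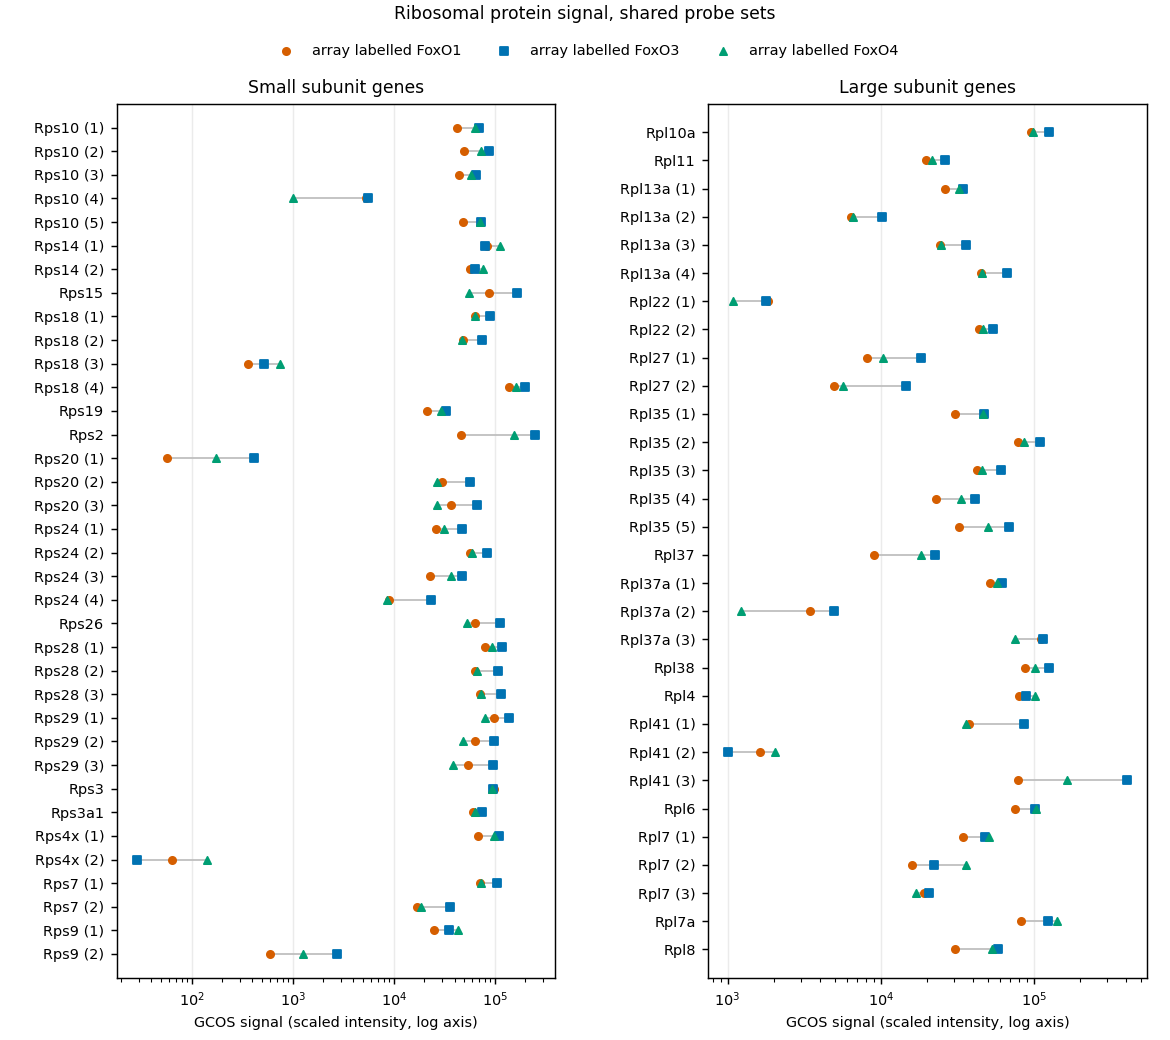
GCOS signal (log axis) of the 66 shared ribosomal probe sets, 1 row each, numbered where a gene has several; each symbol is 1 array and the grey line joins the 3. The square of the FoxO3-labelled array lies furthest right on 53 of the 66 rows.

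The FoxO1-labelled array was first compared with the FoxO3-labelled array, on log2 signal floored at the 20th percentile of each array. The median difference, FoxO1 minus FoxO3, was -0.58 over the 25 plain sets and -0.58 over the 66 shared sets, which is 1.5-fold lower on the FoxO1-labelled array. Its middle 50% ran from -1.0 to -0.24 on plain sets and from -0.84 to -0.43 on shared sets. All plain probe sets of the array had a median of 0.15 and all shared sets 0.05, and those in the upper 10% by signal -0.04 and -0.24. Of the shared members 12 were lower by 2-fold or more and 0 higher, where the shares over all shared sets were 19.4% and 18.9%. Of the plain members 6 were lower and 2 higher, with 19.9% and 24.3% over all plain sets. The median shift was thus under 2-fold, and the shares lower by 2-fold or more were near those of other probe sets on this scaling. With each array centred on its median 10 plain members were lower, beside 24.1% of all plain sets, and after quantile normalization 8, beside 21.8%. Small subunit genes had medians of -0.82 on plain and -0.64 on shared sets, and large subunit genes -0.58 and -0.51.

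Rps2, a protein at the entrance of the messenger RNA channel, had the largest such difference among shared sets. Its 1 set read 46651, 251834 and 156084, a log2 difference of -2.43 for the first pair. Rpl41, a very short protein at the subunit interface, had a set that read 78426, 404069 and 164144, a difference of -2.37. By these 2 sets the FoxO1-labelled array was more than 2-fold below each of the others. The remaining 2 shared sets of Rpl41 gave -1.19 and 0.69, so the sets of that gene did not go 1 way. Rpl37, a zinc-binding protein of the large subunit, read 9007, 22567 and 18408, a difference of -1.33.

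Among plain sets the strongest differences were on dim readings. The brighter of the 2 plain Rps3 sets read 31.4, under that array's floor of 81.2, then 1270 and 1324. Rps3 lines the messenger RNA entry tunnel, and its signal was at least 15.6-fold lower by this set than on the FoxO3-labelled array. The other plain Rps3 set read 180, 104 and 102, a difference of 0.80. The shared Rps3 set read 97326, 96606 and 93035, a difference of 0.01, so the 3 sets of Rps3 gave 3 different answers. Rps20 read 44.0, 564 and 410 on its plain set, at least 6.94-fold lower on the FoxO1-labelled array than on the FoxO3-labelled array. The 2 bright shared sets of Rps20 gave -0.94 and -0.87, the same side at a smaller size. Rps24 was at -1.95 on its brighter plain set, with readings of 1330, 5136 and 3754, and its 4 shared sets lay between -1.40 and -0.54. Rpl12, which lies at the base of the large subunit's stalk, read 1889, 6318 and 5565 on its only set, a difference of -1.74. Rpl14 read 389, 776 and 755 on its only set, at -1.0.

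**Figure D2:**
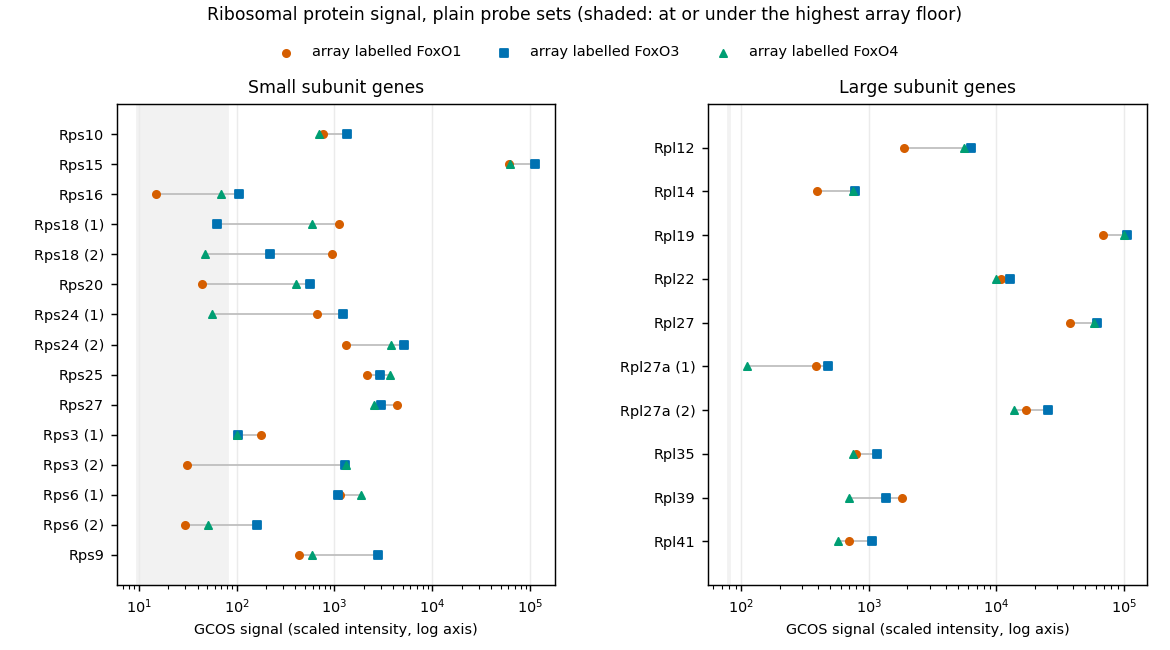
GCOS signal (log axis) of the 25 plain ribosomal probe sets by subunit, 1 row each, with the 3 arrays as symbols; the shaded band ends at 81.2, the highest of the 3 array floors. Readings at or under their own array's floor number 4 on the FoxO1-labelled array (Rps3, Rps6, Rps16, Rps20), 1 on the FoxO3-labelled array (Rps18) and 4 on the FoxO4-labelled array (Rps6, Rps16, Rps18, Rps24).

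Rps18 went the other way. One plain set read 1119, 62.7 and 587 and the other 951, 222 and 47.7. Compared with the FoxO3-labelled array, whose reading of the first set was under its floor of 73.1, they were at least 15.3-fold and 4.28-fold higher, the 2 plain members past 2-fold in that direction. The 4 shared sets of Rps18 lay between -0.63 and -0.51, and the lowest reading of the 3 bright ones was 47692. Rps27 and Rpl39 stood at 0.54 and 0.42 on their only sets. Rps27 read 4381, 3022 and 2565, and Rpl39, a small protein of the exit tunnel, read 1835, 1369 and 694.

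Between the FoxO3-labelled and FoxO4-labelled arrays the list was higher on the first. The median difference, FoxO3 minus FoxO4, was 0.45 over plain sets and 0.36 over shared sets, 1.37-fold and 1.28-fold higher, beside -0.08 and -0.03 over all plain and all shared sets. Those in the upper 10% by signal had medians of -0.08 and 0.14. Of the shared members 14 were higher by 2-fold or more and 1 lower, with 20.3% and 18.4% over all shared sets. Of the plain members 5 were higher and 1 lower, with 20.4% and 21.7%. Shared sets of small subunit genes stood at 0.53, and 10 of 36 were past 2-fold, and those of large subunit genes at 0.31, with 4 of 30.

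Several genes repeated this difference over their own probe sets. Rps29, a zinc-binding protein near the decoding head, had 3 shared sets at 0.79, 1.03 and 1.30, and the dimmest of them read 54332, 95514 and 38710. Rps20 had bright shared sets at 1.09 and 1.33, a dim shared set at 1.25 and its plain set at 0.46. Rps15, a protein of the small subunit head, stood at 0.87 on its plain set, with 61177, 112892 and 61756, and at 1.58 on its shared set. Rps26, which contacts the messenger RNA at the exit channel, has only 1 set, which read 63957, 113395 and 53126, a difference of 1.09. On these 4 genes of the small subunit the FoxO3-labelled array was the highest by every set. Rpl27 had shared sets at 1.38 and 0.82, while its plain set read 37894, 61635 and 58215, a difference of 0.08. Rps9 stood at 2.25 on its plain set, with 439, 2814 and 593, and at 1.12 on its dimmer shared set, while its brighter shared set gave -0.31. Rps24 was at least 15.7-fold higher on its dimmer plain set, which read 671, 1217 and 55.8, the last under the floor of 77.3, and its other sets lay between 0.37 and 1.45. On the other side of 0 lay 4 plain and 11 shared sets. Among them Rps18 was at least 8.03-fold lower on 1 plain set, 1 Rpl41 set stood at -1.01, a dim Rps4x set at -0.96 and the brighter Rps6 set at -0.80. The 2 shared Rps14 sets, the single Rpl4 and Rpl7a sets and 2 of the 3 Rpl7 sets lay between -0.68 and -0.09.

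The FoxO1-labelled and FoxO4-labelled arrays were compared last. The median difference, FoxO1 minus FoxO4, was 0.07 over plain sets and -0.20 over shared sets, beside 0.07 over all plain and 0.07 over all shared sets. Those in the upper 10% by signal had medians of -0.09 and -0.08, near the -0.15 of the 59 shared members there. The median of plain members turned to -0.14 with each array centred on its median. It was -0.28 over the 8 plain members in the upper 10% by signal, so its sign is not settled. Centring moved the shared median to -0.41, about the size of the 0.40 for FoxO3 minus FoxO4 on that scaling. Of the plain members 4 were at least 2-fold higher and 4 lower, with 23.2% and 20% over all plain sets. Of the shared members 2 were higher and 7 lower, with 19.4% and 17.3%. The highest value among shared sets was that of an Rps10 set, at 2.40, with readings of 5299, 5543 and 1001, while its other 4 shared sets lay between -0.58 and -0.38 and its plain set at 0.12. Rpl37a had shared sets at 1.49, 0.55 and -0.15, so its sets did not go 1 way either.

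**Figure D3:**
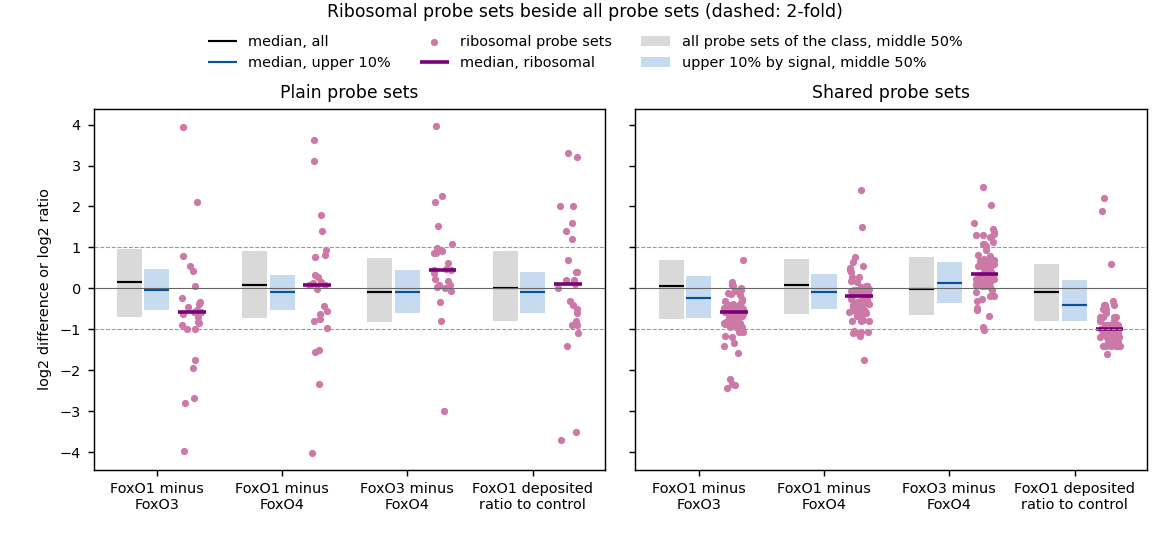
Log2 differences of ribosomal probe sets (points, thick bar at their median) beside the middle 50% and median of all probe sets of the same class (grey) and of those in the upper 10% by signal (blue). The shared members sit at medians of -0.58, -0.20, 0.36 and -1.0 in the 4 comparisons.

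The FoxO1-labelled array was also set against control RNAi, through the ratio to control in the authors' deposited table. The median log2 ratio was -1.0 over the 66 shared sets, with a middle 50% from -1.2 to -0.8, beside -0.1 over all shared sets and -0.4 over those in the upper 10% by signal. Of the 66, 41 had a ratio of -1 or lower and 2 had 1 or higher in the authors' deposited table, where all shared sets gave 20.6% and 18.8%. The median was -0.48 once the array and the control signal derived from the ratio were quantile normalized. The count of 41 rests on the scaling: it was then 5, where 18.3% of all shared sets were at -1 or lower. This alternative count was chosen with the values in view. The change call in the authors' deposited table was a decrease for 45 of 66 shared sets, 68.2%, and an increase for 0. Over all shared sets it was a decrease for 8.78% and an increase for 1.94%, and over those in the upper 10% by signal 25.8% and 6.82%.

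The 25 plain sets had a median ratio of 0.1 in the authors' deposited table, beside 0.0 over all plain sets, with 7 at 1 or higher and 4 at -1 or lower, where all plain sets gave 24.3% and 21.3%. The median was -0.1 with 1 value per gene and -0.55 over the 8 bright members, so it has no settled sign either. The 4 plain decrease calls were Rpl19 at -1.1, Rpl27 at -1.4, Rps6 at -0.9 and Rps3 at -3.7, and the 1 increase call was Rpl27a at 0.7. Over all plain sets 3.07% were called decreased and 1.08% increased, and of those in the upper 10% by signal 15.5% and 9.87%.

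Of the 8 plain members in the upper 10% by signal, Rpl12 and Rps24 were lower by 2-fold or more on the FoxO1-labelled array than on each of the others and 0 were higher. Both read under that array's 90th percentile of 2909.5 and over the 90th percentile of each other array. They thus entered the upper 10% through the arrays where they were high, and the count only describes them. All plain sets that bright were lower in 10.6% and higher in 11.5% of cases against FoxO3, and in 8.51% and 5.55% against FoxO4. Between FoxO3 and FoxO4, 0 of the 8 were past 2-fold, where 9.03% of such sets were higher and 13.6% lower. In the deposited ratio Rpl19 and Rpl27 were at -1 or lower and 0 at 1 or higher, where 12.1% and 9.99% were.

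Plain and shared sets of a gene parted furthest in this ratio. In the authors' deposited table Rpl35 had 5 shared sets between -1.4 and -0.9 and a plain set at 3.3. That plain set read 796, 1154 and 752, and a shared set read 78800, 109413 and 86446. Rps10 had 5 shared sets between -1.6 and -1.0 and a plain set at 1.2. Rpl41 had a plain set at 1.4 and shared sets at -1.1, -0.9 and 0.6, and Rps24 plain sets at 0.0 and 3.2 beside 4 shared sets between -1.2 and -1.0. None of the positive ratios of these genes carried an increase call. The spread between shared sets of a gene, highest minus lowest ratio, had a median of 0.5 over 17 genes and reached 3.6 in Rps18. Among bright shared sets alone, 14 genes, it was 0.3 and at most 0.6. Over 5 genes with 2 plain sets, of any brightness, the median spread was 2.6.

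**Figure D4:**
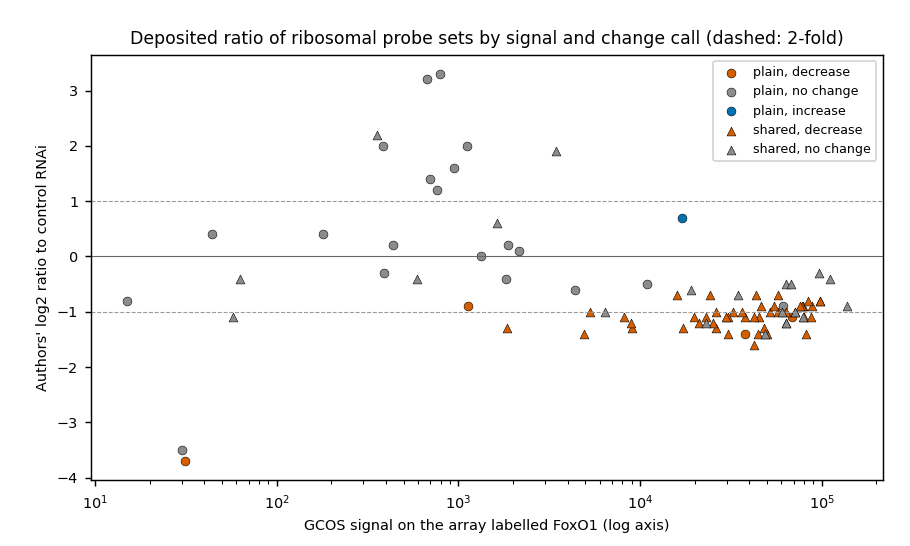
The authors' log2 ratio of the FoxO1-labelled array to control RNAi against GCOS signal on that array (log axis), 1 point per ribosomal probe set, by class (shape) and change call (colour). The bright shared sets form a band around -1.0, and the ratios above 1 come from sets with lower signal.

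Members with roles known from other work had the following ratios in the authors' deposited table. Rpl11, which joins the central protuberance with ribosomal RNA and binds Mdm2, had 1 set at -1.1, called decreased, with signals of 19800, 26157 and 21688. Rpl10a near the tRNA exit site was at -0.3, with signals of 96374, 124796 and 98449, and Rpl4, which lines the exit tunnel, at -1.1, with 80364, 89084 and 101943. Rps6, the substrate of S6 kinase, was represented by 2 plain sets: the brighter read 1132, 1085 and 1887 and had a ratio of -0.9, and the other read 30.1, 163 and 51.5, with a ratio of -3.5 and no change called. Rps28, next to the exit channel of the messenger RNA, had 3 sets between -1.1 and -0.5, and Rps2 a ratio of -0.9. Rpl13a, which in human cells leaves the ribosome to silence inflammatory messages, had 4 sets between -1.3 and -0.7. Rps7, another Mdm2 partner, had sets at -1.0 and -1.3, Rpl38, linked to Hox messages in mice, 1 set at -0.9, Rpl22 3 sets between -1.3 and -0.5, and Rps14 2 sets at -0.7 and -0.8. Of 18 genes mutated in human Diamond-Blackfan anaemia 11 were members. Their 27 shared sets had a median ratio of -1.1, with 23 at -1 or lower, where 20.6% of all shared sets were, a count on the same scaling as the 41 above. Their 6 plain sets had a median ratio of 0.6, with 3 at 1 or higher and 1 at -1 or lower, where 24.3% and 21.3% of all plain sets were. For FoxO1 minus FoxO3 the medians were -0.70 on shared and -0.76 on plain sets.

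A control signal can be derived from the signal and ratio of the FoxO1-labelled array, a step added after the values were seen, and all 3 comparisons with it share that control. Over all members the classes lay on opposite sides. The median difference over shared sets was -0.36 for FoxO3 and -0.77 for FoxO4, and over plain sets 0.56 and 0.21. All shared sets of the array had -0.16 and -0.20, and all plain sets -0.22 and -0.17. Within the upper 10% by signal the medians were -0.38 and -0.85 on 59 shared and -0.14 and -0.60 on 8 plain members. All shared sets that bright had -0.11 and -0.22, and all plain sets that bright -0.11 and 0.03. Of the 8 plain members 3 lay above 0 for FoxO3 and 3 for FoxO4. The other 7 shared members had 1.74 and 0.68, and the other 17 plain members 0.70 and 0.63. At least 2-fold lower were 1 and 18 of the 66 shared members, where 18.5% and 19.8% of all shared sets were, and at least 2-fold higher 6 and 1, where 17.7% and 16.9% were. Of the 25 plain members 11 and 8 were higher by that measure, where 20.4% and 21.6% of all plain sets were, and 3 and 4 lower, where 21% and 20.4% were. The derived control is not a measured array, and its 99th percentile of signal was 28783, beside 22338, 24799 and 24397 on the measured arrays. That gap falls in the range of signal where the shared members lie, and its part in these values was not tested.

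Related lists, chosen from the biology of the ribosome, were read beside the members. Ribosomal proteins outside the symbol rule gave medians, FoxO1 minus FoxO3, of -0.96 over 3 plain sets and -0.81 over 2 shared sets. Among them Rplp0, a stalk protein, read 40096, 78046 and 49394, and Rplp2, also of the stalk, 34294, 88166 and 39262. Ribosome biogenesis genes lay further down in that pair, at -1.04 over 42 plain sets with 21 at least 2-fold lower and 1 higher, and at -1.34 over 22 shared sets with 13 lower and 1 higher. Over all plain sets 19.9% were lower and 24.3% higher, and over all shared sets 19.4% and 18.9%. Ncl, the nucleolar protein nucleolin, read 9981, 21829 and 15736 on its brightest set, and Nop56, of the box C/D methylation complex, 3859, 15458 and 8006 on its. For FoxO3 minus FoxO4 the biogenesis list was at 0.61 on plain sets, where 13 of 42 were past 2-fold upward and 2 downward beside 20.4% and 21.7% of all plain sets, and at 0.42 on shared sets. Its median deposited ratio to control was -0.40 on plain and -0.35 on shared sets, where the shared ribosomal sets had -1.0.

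Elongation factors and other genes with a terminal oligopyrimidine tract had 20 shared sets. Their medians were -0.75 for FoxO1 minus FoxO3, 0.14 for FoxO3 minus FoxO4 and -1.15 for the deposited ratio. In that ratio 14 were at -1 or lower, beside 20.6% of all shared sets. Of the 1979 shared sets in the upper 10% by signal 370 were, with a median of -0.4. The like count of shared ribosomal sets fell after quantile normalization, as given above. The count of 14 was not taken on that scaling, so its hold on the scaling was not tested. The 10 plain sets of this list had a median ratio of -0.65. Of these, 3 were at -1 or lower and 3 at 1 or higher, where 21.3% and 24.3% of all plain sets were. Eef2, the translocation factor, read 53956, 83291 and 60703 on its bright plain set with a ratio of -1.6. Tpt1 read 235199, 260653 and 263061 on its shared set with a ratio of -1.3. A dim plain set of Tpt1 read 566, 30.3 and 92.1, with a ratio of 2.3 and no change called. Mitochondrial ribosomal proteins, 76 genes, lay nearer 0, with medians for FoxO1 minus FoxO3 of -0.13 over 102 plain and -0.35 over 54 shared sets, and for FoxO3 minus FoxO4 of -0.02 and 0.06. Their deposited ratio had a median of -0.50 in both classes. The mTOR and translation control list had medians of 0.05 and -0.13 for FoxO1 minus FoxO3 over 35 plain and 12 shared sets. Of these plain sets 18 lay above 0 and 17 below, and of the shared sets 5 and 7. In the list Larp1 read 4851, 11436 and 6726. Myc, which activates ribosome genes, read 1230, 2165 and 1762, with a deposited ratio of 1.0 and no change called. Mtor read 5960, 4621 and 3558 on its brightest set, highest on the FoxO1-labelled array. The 7 measured paralogs and relatives left out by the symbol rule had medians of 0.14 over 7 plain sets and -0.92 over 4 shared sets, with Rpl22l1 at 5156, 20228 and 7816.

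**Figure D5:**
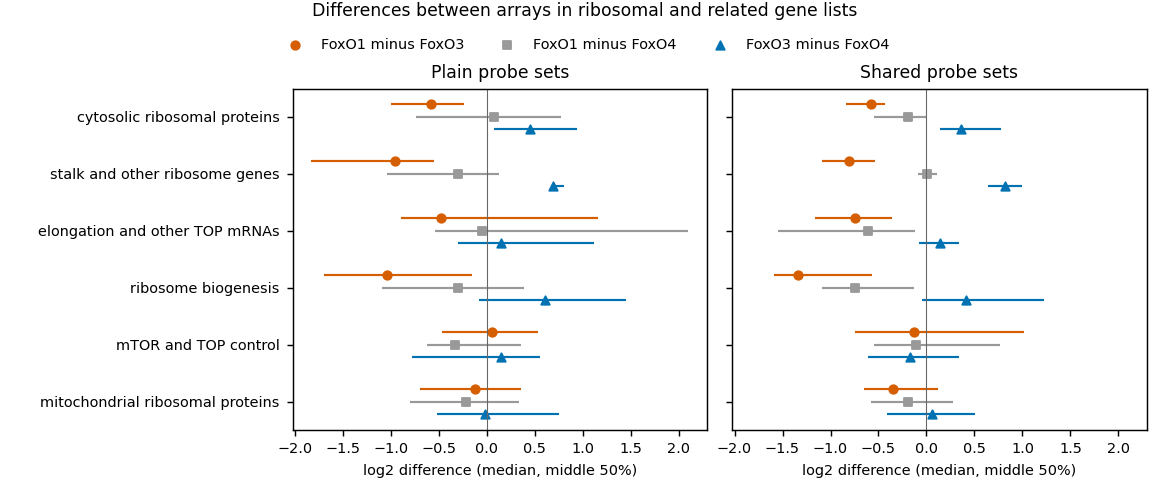
Median log2 difference (symbols) and middle 50% (lines) of probe sets in the ribosomal protein list and 5 related lists, for the 3 pairs of arrays, by probe set class. The biogenesis list lies at -1.04 and -1.34 for FoxO1 minus FoxO3 and the mitochondrial ribosomal list at -0.13 and -0.35.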

How the data were processed

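RNA from 3 C2C12 lines was hybridised to 3 Affymetrix arrays. The deposited signal table holds an intensity per probe set, made with GCOS per the submitters' processing notes; the sources used here give no release or options. Each array has a 2% trimmed mean of 1000. Per the file headers, a second deposited table holds a log2 ratio against control RNAi, in steps of 0.1, and a change call. The FoxO1 ratio followed its own array's signal minus the other arrays with r = 0.58 across 45037 probe sets, which are not replicates. The FoxO3 and FoxO4 ratio columns did not follow their own arrays (r = -0.01 and -0.0012), so their rows may be out of register, and these 4 ratio and call columns gave no result. The FoxO1 column was used on the strength of its r alone.

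Before log2, low signals were raised to their array's 20th percentile (81.2, 73.1 and 77.3 for FoxO1, FoxO3 and FoxO4), without further scaling. Orders of arrays used unfloored signals. Differences were taken per probe set, and counts use a 2-fold threshold, a log2 value of 1. Background shares leave out 64 Affymetrix control sets. Names come from GEO's platform annotation, checked by Entrez identifier against RefSeq: 34958 probe sets have 1 symbol, 932 several and 9211 none, and no member's symbol had changed. The exclusion of names ending in l and a digit was read as an added l after the gene number, so Rpl4, Rpl6, Rpl7 and Rpl8 stay in. Floored values give lower bounds of fold changes. With 1 array per line, array number limits the precision and no interval can be given.

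The members, lists and alternatives were chosen with earlier results of these data known. Genes were named from the 6 highest and 6 lowest plain sets of each comparison, plain sets of a gene that disagree, fixed role groups, the 6 genes whose plain and shared sets part furthest, and sets 2-fold from both other arrays. Rpl7 and Rpl7a were chosen after their values were seen. The calculation was tested on simulated data. Python 3.11.15, numpy 2.4.6, pandas 2.3.3 and matplotlib 3.10.9 were used.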

Additional observations from a re-analysis of the deposited data

How the results depend on the processing

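Medians were compared with a tolerance of 0.2 in log2 and counts with one of 1.5 times. With each array centred on its median, FoxO1 minus FoxO3 moved to -0.84 on plain and -0.84 on shared sets with 10 plain sets at least 2-fold lower (24.1% of all plain sets were), and FoxO1 minus FoxO4 to -0.14 on plain, the opposite sign, and -0.41 on shared sets. Centring moves the median of all plain sets from 0.15 to -0.10 in the first pair and from 0.07 to -0.14 in the second. After quantile normalization the shared median was -0.37 for FoxO1 minus FoxO3 and -0.48 for the deposited ratio. In that ratio 5 shared and 2 plain sets were then at -1 or lower, where 18.3% of all shared and 21.3% of all plain sets were. A floor at the 40th percentile gave FoxO3 minus FoxO4 0.24 on plain sets, with 2 at least 2-fold higher, where 9.77% of all plain sets were. Over the 19 plain members above the median signal the counts at least 2-fold higher were 1, 2 and 2 for FoxO1 minus FoxO3, FoxO1 minus FoxO4 and FoxO3 minus FoxO4. The share of all plain sets above that signal was not taken, so these counts have no background. Over the 8 plain members in the upper 10% by signal, an alternative added after the values were seen, 2, 2 and 0 were lower and 0, 0 and 0 higher in those pairs. The 2 lower in the FoxO1 pairs were Rpl12 and Rps24, which entered these 8 through the other arrays. For the deposited ratio 2 of the 8 were lower and 0 higher. There FoxO1 minus FoxO4 had a median of -0.28 and the deposited ratio -0.55, both of opposite sign to those over all plain sets, and the ratio was -0.10 with 1 value per gene. Fewer sets enter these last settings, and the cause of the other shifts was not tested. The FoxO3 array stayed highest on 43 to 56 of 66 shared and 15 to 17 of 25 plain sets over the floor, centring and quantile normalization. On the unfloored signals it was highest on 35.8% of all shared and 30.2% of all plain sets. The shares of all sets under those alternatives were not taken. Of 106 alternative values 81 stayed within tolerance, 21 moved and 4 changed sign.

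No paired analysis was possible because each line has 1 array, and leaving out an array leaves no comparison. Probe sets near the floor give bounds at best, and agreement between sets of a gene was poor there.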
